A study of Homo sapiens with 78 samples.

Results

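A set of 10 Notch signalling genes was followed through 78 single-cell total RNA libraries: the receptors NOTCH1, NOTCH2 and NOTCH3, the ligand JAG1, the targets HES1, HES4, DTX1, PTCRA and NRARP, and FBXW7, which marks the released receptor for degradation. They were taken by name, and the estimated counts and TPM (a level per length, scaled to the same sum in each well) of their Ensembl transcripts were summed in each well. These 10 genes stand among 62913 features, which are genes and transcripts that could not be matched to a gene, and 9 of the 10 held at least 1 count in some well. The wells hold single cells of Jurkat, a human T cell leukemia line (clone E6-1, grown in RPMI), and of A375, a human melanoma line (grown in DMEM), all without a drug or genetic treatment in the labels. Live cells were sorted by 7-AAD staining, Jurkat with an antibody to CD81 into lysis solution and A375 with an antibody to CD47 into PBS. For total RNA libraries, 18 Jurkat and 21 A375 wells were processed with a SMARTer Stranded v2 Pico Input reagent set (kit #634413), and the same numbers with SMART-Seq Stranded reagents (kit #634444). Each line was sorted into a buffer of its own, so cell line, medium and buffer cannot be told apart.

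Notch receptors are cut when a ligand on a neighbouring cell pulls on them, and the released intracellular part enters the nucleus, binds the DNA-binding protein RBPJ and a Mastermind-like coactivator, and switches on genes such as HES1, HES4, DTX1 and NRARP. The ubiquitin ligase subunit FBXW7 then ends the signal by targeting this intracellular part for destruction. In developing T cells the pathway drives lineage commitment and the pre-T cell receptor chain PTCRA, and in T cell leukemia NOTCH1 is a frequent oncogene.

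Wells held 909 to 2567265 estimated counts with a median of 813697, and the 9 wells below 25% of that median were all A375 wells, 4 with kit #634413 and 5 with kit #634444. In every Jurkat well (18 of 18 per kit) the 12 T cell markers together held more counts than the 12 melanoma markers, and the reverse held in 19 and 17 of 21 A375 wells, the other 2 and 4 having no marker count. Those 2 and 4 wells held 909 to 2373 counts, with 16.9% to 72.5% of them on the rDNA repeat unit. In Jurkat wells this share was 8.87% to 20.8%. A375 replicates 8 and 11 of kit #634413 passed the 25% limit with shares of 53.4% and 48.5%. All these A375 wells stay in the main fits, in the count medians and in detection given out of 21 wells. A375 medians and detection may read low because of them. CD3D, CD3E and CD2 held 0 counts in all A375 wells, and SOX10 held 5241 and 4253 counts in 19 and 17 A375 wells, against 0 and 6 in Jurkat. Other members of the lists were shared. VIM, on the melanoma list, held 7840 and 6320 counts in Jurkat, in 18 of 18 wells per kit, and 14117 and 15142.9 in A375. On the T cell list, PTPRC held 23 and 88.2 counts in 6 and 10 A375 wells, and CD3G 55 and 10 counts in 4 and 6. The pigment genes PMEL, MLANA and TYR were low in A375, with 72, 19 and 6 counts with kit #634413 and 1, 7 and 8 with kit #634444. A median of 5 of the 10 Notch genes had at least 1 count per well in each of the 4 groups.

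Between the cell lines, HES4 and DTX1 were higher in Jurkat and JAG1 was lower with both kits, and HES1 was lower in Jurkat with kit #634413. NOTCH2, NOTCH3 and FBXW7 did not pass the test with either kit, and NOTCH1, PTCRA and NRARP had too few counts to be tested under their own names. Thus 7 of the 10 genes passed the filter on low counts (5 counts or more in 25% or more of the wells compared). Of these 7, 2 were called higher and 2 lower in Jurkat with kit #634413, and 2 higher and 1 lower with kit #634444, at an adjusted p under 0.05 from edgeR's quasi-likelihood test. Over all features the calls were 23.1% of 11171 with kit #634413 (10.7% higher and 12.4% lower) and 31.9% of 12258 with kit #634444 (17.1% higher and 14.8% lower). In the same direction with both kits, 2 Notch genes were called higher and 1 lower, against 9.39% and 9.82% of the 10866 features tested with both. The median log2 fold change of the 7 genes was -0.32 with kit #634413 and -0.05 with kit #634444, beside 0.13 and 0.19 over all features tested.

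**Figure D1:**
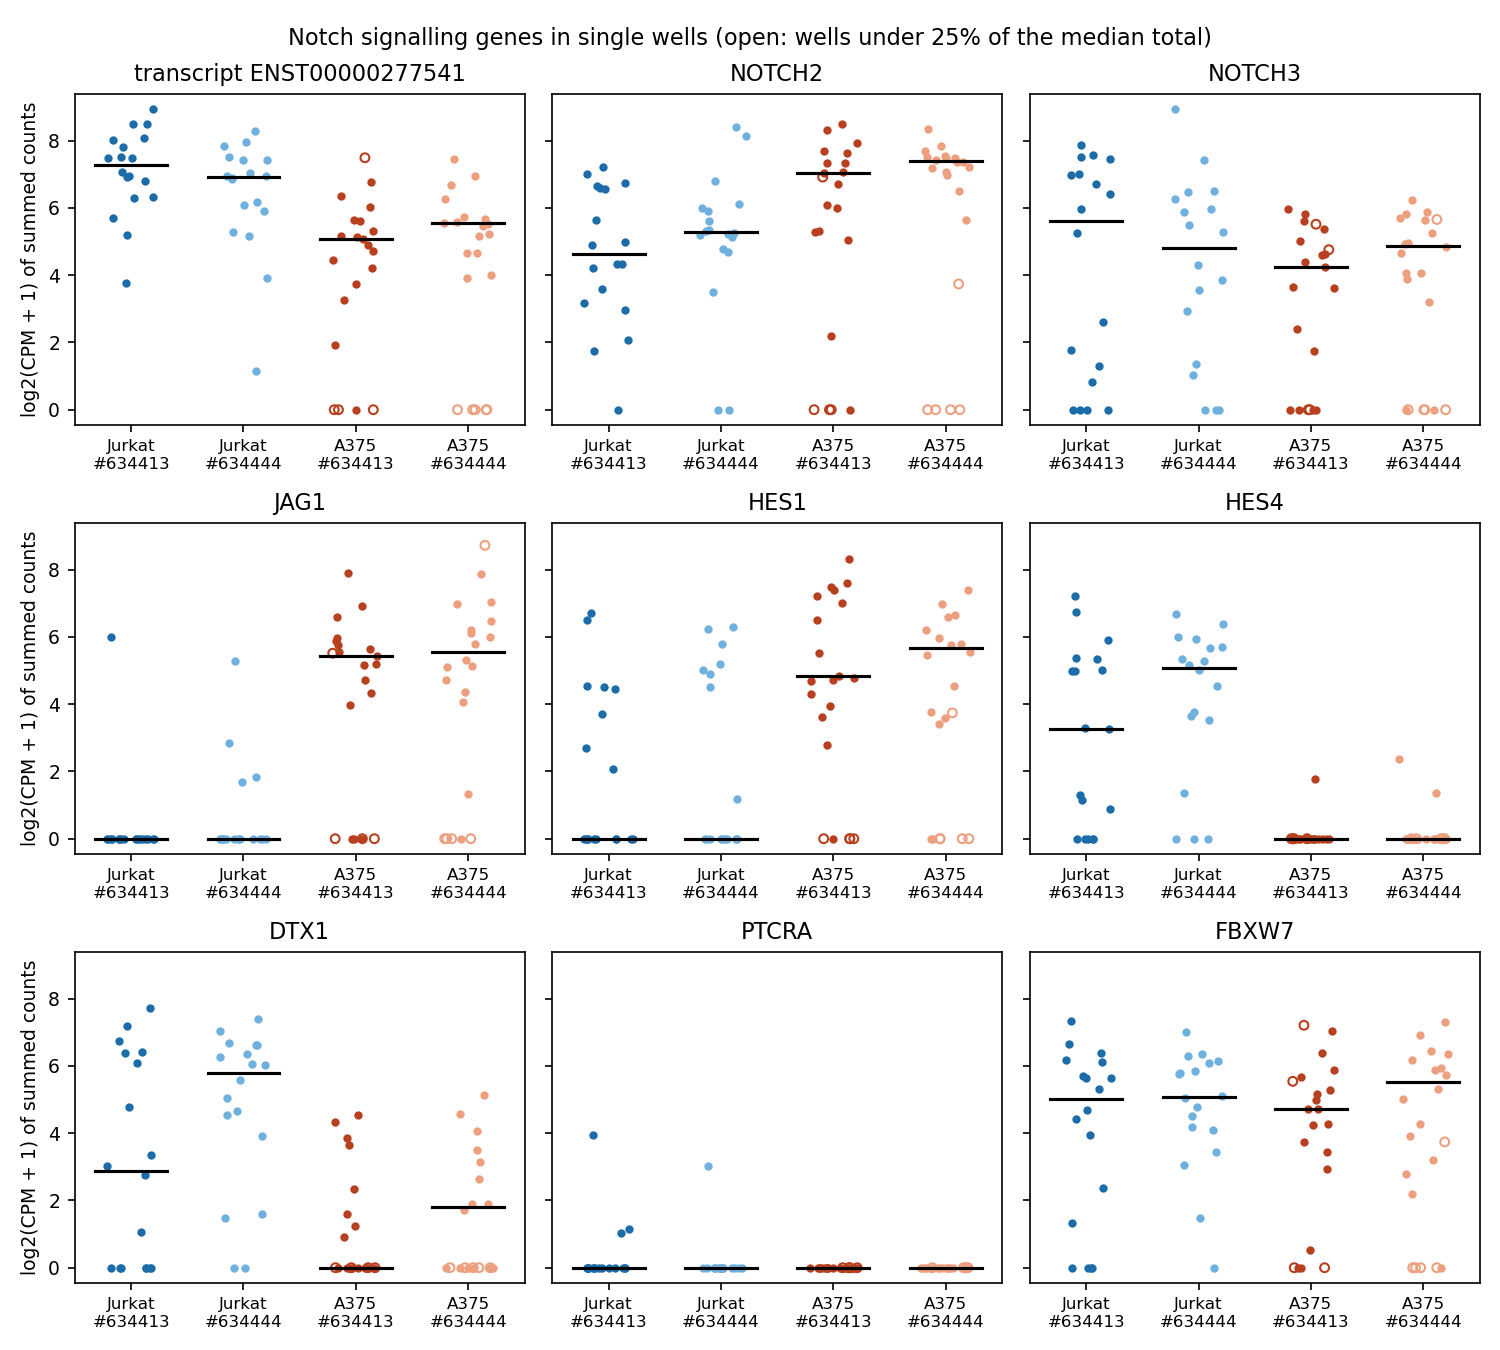
Each point is a well, with log2(CPM + 1) of the summed counts on the vertical axis (CPM, counts per 1000000 counts of the well) and the 4 groups of cell line and kit on the horizontal axis. Open points are the 9 wells below 25% of the median total, and black lines are medians of the other wells. HES4 lies at 0 in nearly all A375 wells and JAG1 at 0 in nearly all Jurkat wells, while FBXW7 covers the same range in the 4 groups.

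NOTCH1 encodes the receptor most often mutated in T cell leukemia, on chromosome 9 (GRCh38, 136494433 to 136546048, minus strand). Only 1 of the 16 transcripts that GENCODE v44 lists for it was among the quantified targets, the retained intron transcript ENST00000491649 of 743 bases, and its MANE Select transcript, ENST00000651671, was not. Through this target NOTCH1 had 120.7 counts in 3 of 18 Jurkat wells with kit #634413, and 18.7 counts in 1 of 18 with kit #634444. The A375 wells held 0 counts with kit #634413 and 2.5 with kit #634444, at most 1.24 in a well. NOTCH1 by this name was therefore a sparse signal in a few Jurkat wells and did not pass the filter. With no filter beyond 1 count in 3 wells it was called higher in Jurkat with both kits (adjusted p = 6.409e-05 and 0.01241), on fitted folds that depend on the prior count. That setting called 7603 of 20891 and 9147 of 23916 features between the lines, and 1450 of 18306 between the kits in Jurkat.

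A much stronger signal lay on ENST00000277541, a target of 9371 bases that neither the deposited tables nor the annotation used here pairs with a gene. Older Ensembl releases used this identifier for the full-length NOTCH1 mRNA, which is given as background and was not checked against a file. Counts of ENST00000277541 ran from 11 to 469.1 with a median of 134.6 in Jurkat wells of kit #634413, and from 1 to 198 with a median of 93 in those of kit #634444. In A375 wells they ran from 0 to 198 with a median of 28, and from 0 to 139 with a median of 19. The transcript was thus present in all 36 Jurkat wells, and in 17 and 16 of 21 A375 wells, with ranges that overlap. Its log2 fold change, Jurkat against A375, was 1.93 ± 0.52 (SE, adjusted p = 0.002575) with kit #634413 and 1.24 ± 0.45 (SE, adjusted p = 0.02695) with kit #634444, from edgeR's quasi-likelihood test as throughout. The first call held under all 7 alternatives and without any single well. The second call was lost without the 5 shallow wells of kit #634444 (0.94, adjusted p = 0.06918) and on TPM with limma (1.13, adjusted p = 0.05191). That call was also lost without Jurkat replicate 8 of kit #634444 (1.11, adjusted p = 0.05607) and without A375 replicate 15 (1.23, adjusted p = 0.05127). Added to the retained intron target, a sum chosen after the values had been seen, ENST00000277541 gave NOTCH1 a log2 fold change of 2.0 (adjusted p = 0.001747) and 1.25 (adjusted p = 0.02535).

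NOTCH2, a receptor of broad expression on chromosome 1 (119911553 to 120100779), was detected in 17 and 16 of 18 Jurkat wells and in 17 of 21 A375 wells with each kit. Its counts in Jurkat wells reached 205 with a median of 22 with kit #634413 and reached 152 with a median of 44.5 with kit #634444, from a lowest value of 0 in each. In A375 wells the lowest was again 0, the medians were 97 and 105 and the highest 363.8 and 418.9. A375 wells held more, but the ranges overlapped, and the log2 fold changes of -1.39 ± 0.58 (SE, adjusted p = 0.07505) and -1.08 ± 0.49 (SE, adjusted p = 0.08355) did not pass the test. Without the 9 shallow wells, NOTCH2 was called lower in Jurkat with both kits, at -1.62 (adjusted p = 0.02586) and -1.42 (adjusted p = 0.007679). With kit #634444 it was also called with library size alone (-1.16, adjusted p = 0.02949), while limma on TPM gave -0.44 (adjusted p = 0.5782). Leaving out Jurkat replicate 15 of kit #634413, or replicate 9 or 13 of kit #634444, also brought the call (adjusted p = 0.04315, 0.01805 and 0.03278). The long protein-coding transcript ENST00000256646 held 90.9% of the NOTCH2 counts in Jurkat and 95.2% in A375.

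NOTCH2 shares near-identical sequence with the NOTCH2NL genes, so reads could be split among them. NOTCH2NLA was called lower in Jurkat with both kits, at -2.46 ± 0.90 (SE, adjusted p = 0.0365) and -2.99 ± 0.67 (SE, adjusted p = 0.0002466). NOTCH2NLC was tested with kit #634444 alone and was not called (-1.28, adjusted p = 0.2426), and NOTCH2NLB and NOTCH2NLR did not pass the filter. With all 4 summed into NOTCH2, the sum had log2 fold changes of -1.49 (adjusted p = 0.03639) and -1.33 (adjusted p = 0.02787), both called. The sum includes NOTCH2NLA, called lower by itself, so these calls are not of NOTCH2 alone.

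NOTCH3, the third receptor, on chromosome 19 (15159038 to 15200995), is itself a Notch target in T cells. Its counts had medians of 46 and 16.5 and highest values of 262 and 402 in Jurkat wells of kit #634413 and #634444, and medians of 7 and 9 and highest values of 76 and 102 in A375 wells, with 0 as the lowest in each group. A single Jurkat well of kit #634444, replicate 3, held 41.7% of the NOTCH3 counts of its group, and without it the log2 fold change of that kit was 0.42 (adjusted p = 0.6515). In CPM, 9 and 5 of the Jurkat wells lay above the highest A375 well of at least 25% of the median total. The others spread over the A375 range. The log2 fold changes of 1.43 ± 0.74 (SE, adjusted p = 0.1696) and 1.12 ± 0.61 (SE, adjusted p = 0.1632) did not pass the test. On TPM, with limma on log2(TPM + 1), the sign turned with kit #634444 (-0.35, adjusted p = 0.691).

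JAG1, a transmembrane ligand that activates Notch receptors on neighbouring cells, lies on chromosome 20 (10637684 to 10673999) and had the largest fold change toward A375 of the 7 tested Notch genes. In Jurkat it had 54 counts with kit #634413, all in replicate 14, and 56 counts with kit #634444 in 4 wells, of which replicate 18 held 47. In A375 it was detected in 15 and 16 of 21 wells, with a median of 17 counts for each kit and highest values of 274 and 242. Apart from the single Jurkat well with kit #634413 and the 4 with kit #634444, Jurkat wells were at 0. The log2 fold changes were -3.81 ± 0.99 (SE, adjusted p = 0.001815) and -4.12 ± 0.77 (SE, adjusted p = 1.068e-05). Leaving out single wells moved them between -8.49 and -3.48 and between -6.02 and -3.85, and JAG1 stayed called in all 39 such fits of each kit. Pooled over wells, JAG1 was at 66.3 and 63 CPM in A375 and at 2.98 and 3.89 CPM in Jurkat. The protein-coding transcript ENST00000254958 held 71% of the A375 counts of JAG1 and had 0 counts in the Jurkat wells of kit #634413.

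**Figure D2:**
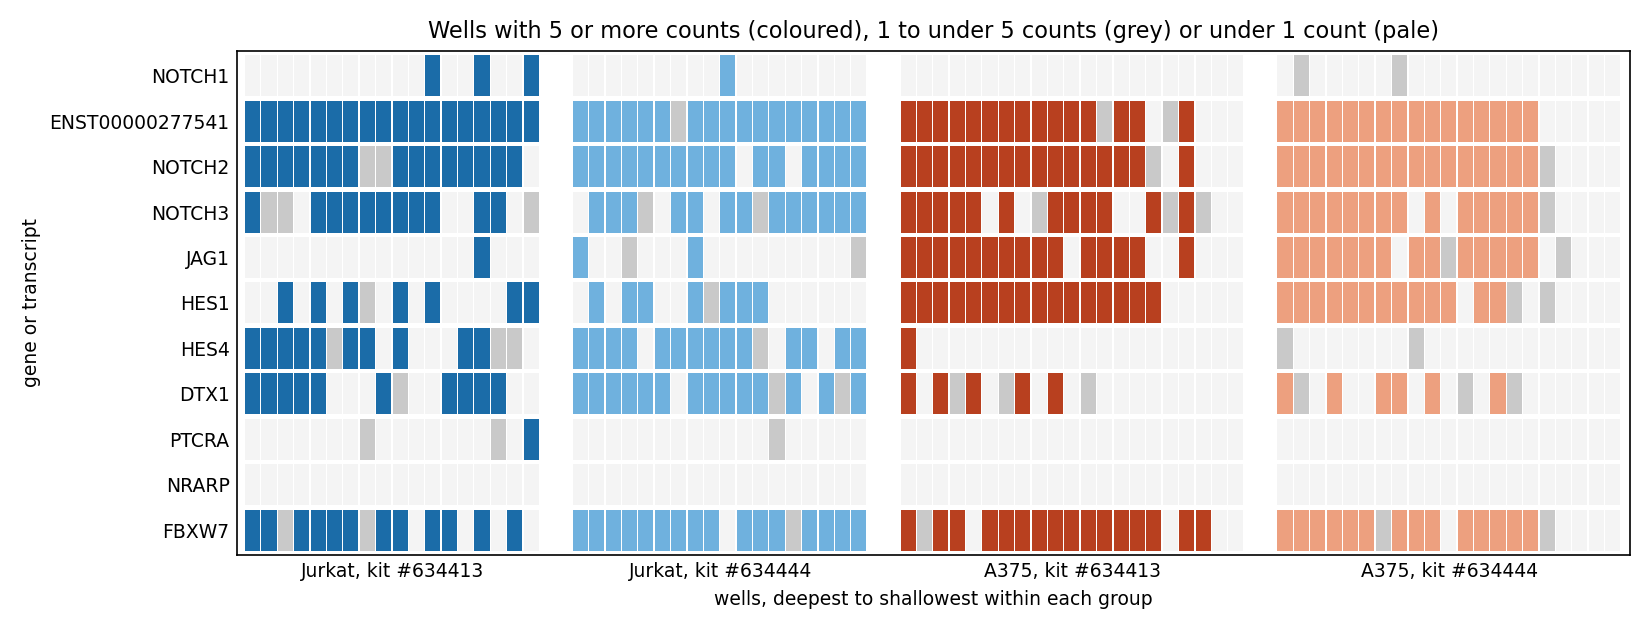
Columns are the 78 wells, ordered by total count within each of the 4 groups, and rows are the genes and ENST00000277541. Coloured cells hold at least 5 counts, grey cells at least 1 and pale cells under 1. HES4 is coloured in 1 A375 well and NRARP in none. The shallow wells stand at the right of the A375 groups, where some columns are pale throughout and others hold Notch counts.

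HES1 and HES4 encode related basic helix-loop-helix repressors that the RBPJ complex switches on, and HES4 was higher in Jurkat with both kits while HES1 was lower there with kit #634413. Their promoters are shown because both hold the RBPJ core TGGGAA within the 250 bases before the transcription start (RefSeq, GRCh38.p14, each on the strand of its gene, motif in capitals), HES1 at chr3:194135898-194136147 on the plus strand and HES4 at chr1:1000098-1000347 on the minus strand.
HES1: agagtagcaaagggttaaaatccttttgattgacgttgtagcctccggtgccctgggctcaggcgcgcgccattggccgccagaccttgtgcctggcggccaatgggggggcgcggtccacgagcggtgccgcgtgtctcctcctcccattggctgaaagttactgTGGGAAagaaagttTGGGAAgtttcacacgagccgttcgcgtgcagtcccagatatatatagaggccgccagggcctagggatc
HES4: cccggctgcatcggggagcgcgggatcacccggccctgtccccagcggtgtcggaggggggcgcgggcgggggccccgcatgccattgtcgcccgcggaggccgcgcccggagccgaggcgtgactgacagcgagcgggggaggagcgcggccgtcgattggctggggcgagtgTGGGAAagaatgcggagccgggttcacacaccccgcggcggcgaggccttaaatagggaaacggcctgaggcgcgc
HES1 holds 2 copies, with their first bases 84 and 70 bases before the start, and HES4 holds 1, at 76 bases before it. These distances are from the RefSeq start. The GENCODE v44 span of HES4 (998962 to 1000172) reaches into its window, so the 2 annotations place the HES4 start differently. Searched on both strands, 2 of the 12 promoters listed for 9 of the Notch genes (16.7%) held the core, beside 20.8% of 35116 promoters of the same length. At least 2 copies were held by 2.9% of those 35116 promoters. Such a match is a description of the letters and says nothing of binding in these cells. The table had no entry for DTX1.

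HES1, on chromosome 3 (194136148 to 194138732), was detected in 8 of 18 Jurkat wells with each kit, and in 16 and 15 of 21 A375 wells. Its median in Jurkat was 0 counts with both kits, with highest values of 117 and 67. In A375 the medians were 36 and 19 and the highest values 233 and 188. Jurkat wells were thus mostly at 0 with some wells inside the A375 range, and 6 and 4 A375 wells lay above every Jurkat well. The log2 fold change was -2.31 ± 0.81 (SE, adjusted p = 0.02755) with kit #634413, called lower in Jurkat, and -1.38 ± 0.70 (SE, adjusted p = 0.1287) with kit #634444, not called. The call with kit #634413 was lost without A375 replicate 16 (-2.03, adjusted p = 0.07209) and with DESeq2 (-2.03, adjusted p = 0.06843). The difference between the kits in this contrast was 0.91 ± 1.08 (SE, adjusted p = 0.9999) and was not called.

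The HES1 counts fell on different annotated targets in the Jurkat wells of the 2 kits. With kit #634413, 281 of the 300 HES1 counts (93.7%) were on the retained intron transcript ENST00000476918, in 7 wells, and 19 on the protein-coding ENST00000232424, in 1 well. With kit #634444, 279.6 of 292 counts (95.8%) were on the protein-coding transcript, in 7 wells, and 12.4 on the retained intron, in 2 wells. In A375 the protein-coding transcript held 63.2% and 70.3%. These shares rest on few Jurkat wells and were not tested.

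HES4, on chromosome 1 (998962 to 1000172), was nearly absent from the A375 wells. Jurkat wells of kit #634413 held 0 to 127 counts with a median of 9.5, in 13 of 18 wells, and those of kit #634444 held 0 to 57 with a median of 24.5, in 15 of 18 wells. All A375 wells together held 6 counts with kit #634413, in 1 well, and 7 counts with kit #634444, in 2 wells, none of them shallow. In CPM, 10 and 14 of the Jurkat wells lay above every A375 well of at least 25% of the median total. The log2 fold changes were 6.35 ± 1.14 (SE, adjusted p = 3.551e-06) and 5.92 ± 0.83 (SE, adjusted p = 1.516e-08), the largest of the 7 genes in the main fit of each kit. With so few A375 counts, the size of these fitted folds depends on the prior count. HES4 was called with both kits under all 7 alternatives and without any single well. Over the alternatives its values ran from 2.90 to 6.43 and from 3.77 to 6.01, with limma on the log2(TPM + 1) scale. Pooled over wells it was at 30.4 and 31.3 CPM in Jurkat, and at 0.331 and 0.473 CPM in A375. The protein-coding transcript ENST00000304952 held 60.1% of the Jurkat counts.

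DTX1, an E3 ubiquitin ligase of the Deltex family that acts on Notch receptors and is itself a target, lies on chromosome 12 (113056730 to 113098028). Its counts in Jurkat ran from 0 to 278 with a median of 6.5 with kit #634413 (11 of 18 wells), and from 0 to 160 with a median of 44 with kit #634444 (16 of 18 wells). In A375 it was detected in 8 and 9 of 21 wells, with medians of 0 and highest values of 30 and 18. Jurkat wells were higher, and in CPM 7 and 10 of them lay above every A375 well of at least 25% of the median total. The rest overlapped. The log2 fold changes were 3.17 ± 0.97 (SE, adjusted p = 0.009148) and 3.18 ± 0.68 (SE, adjusted p = 0.0001029). With kit #634413 the call was lost on TPM with limma (1.52 on the log2(TPM + 1) scale, adjusted p = 0.0609). The protein-coding transcript ENST00000257600 held 55.9% of the DTX1 counts in Jurkat and 22.8% in A375, where the shorter ENST00000548759 held 41.2%.

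**Figure D3:**
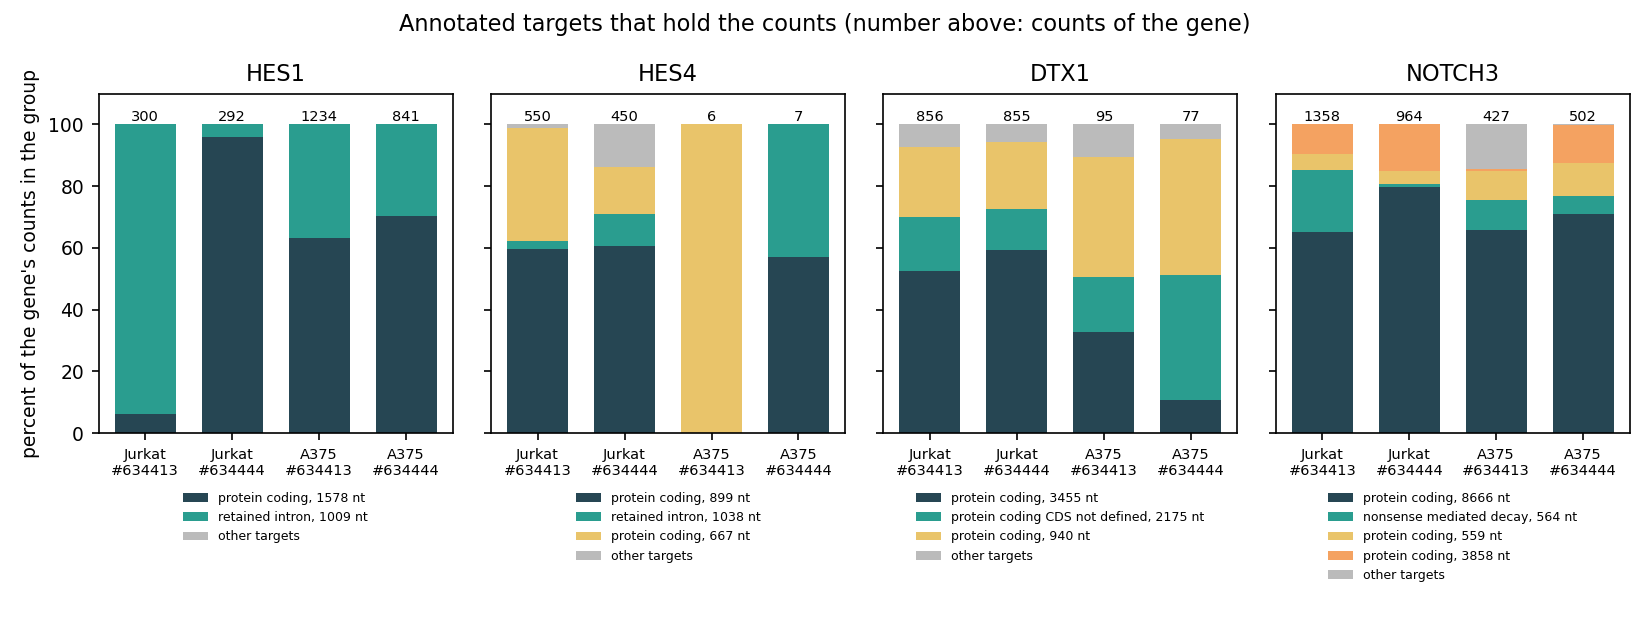
Bars give, for each group of cell line and kit, the percent of the counts of HES1, HES4, DTX1 and NOTCH3 that fell on each annotated target, with the number of counts above each bar. The HES1 bars of the Jurkat wells are almost wholly retained intron with kit #634413 and almost wholly protein coding with kit #634444, and the A375 bars of HES4 rest on 6 and 7 counts.

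PTCRA, the invariant chain that pairs with the T cell receptor beta chain in early thymocytes, is on chromosome 6 (42915989 to 42925838). It had 8 counts in 3 Jurkat wells of kit #634413, 6 of them in replicate 13, and 4 counts in 1 Jurkat well of kit #634444. In A375 it had 0 counts with both kits, where 3 counts would have been 0.166 and 0.203 CPM. At this depth PTCRA was barely above what could be seen, and it did not pass the filter. With no filter beyond 1 count in 3 wells it was called higher in Jurkat with kit #634413 (adjusted p = 0.004784), on those 8 counts. That setting called 7603 of 20891 features between the lines with this kit, and 1450 of 18306 between the kits in Jurkat. NRARP, a target that feeds back on the Notch complex (chromosome 9, 137299631 to 137302271), had 0 counts in all 78 wells, which allows at most 0.0459 CPM over all wells together. Such limits cover counting error only. Its single transcript, ENST00000356628, was among the targets, so the gene was quantified and not detected at this depth.

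FBXW7, the substrate-binding subunit of the ubiquitin ligase that degrades intracellular Notch, lies on chromosome 4 (152320544 to 152536092) and is often inactivated in T cell leukemia. It was detected in 14 and 17 of 18 Jurkat wells and in 17 and 16 of 21 A375 wells. Its counts had medians of 33.5 and 28 and highest values of 112 and 93 in Jurkat, and medians of 13 and 25 and highest values of 152 and 163 in A375, with 0 as the lowest in each group. The 4 groups covered the same range. The log2 fold changes were -0.32 ± 0.71 (SE, adjusted p = 0.8087) and -0.05 ± 0.52 (SE, adjusted p = 0.9574), and their sign turned with the scaling (0.11 with library size alone and 0.20 with DESeq2, kit #634413). Of the FBXW7 counts, the full-length protein-coding ENST00000281708 held 17.7% in Jurkat and 21.6% in A375, and the short ENST00000605042 of 671 bases held 35.4% and 24%.

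**Figure D4:**
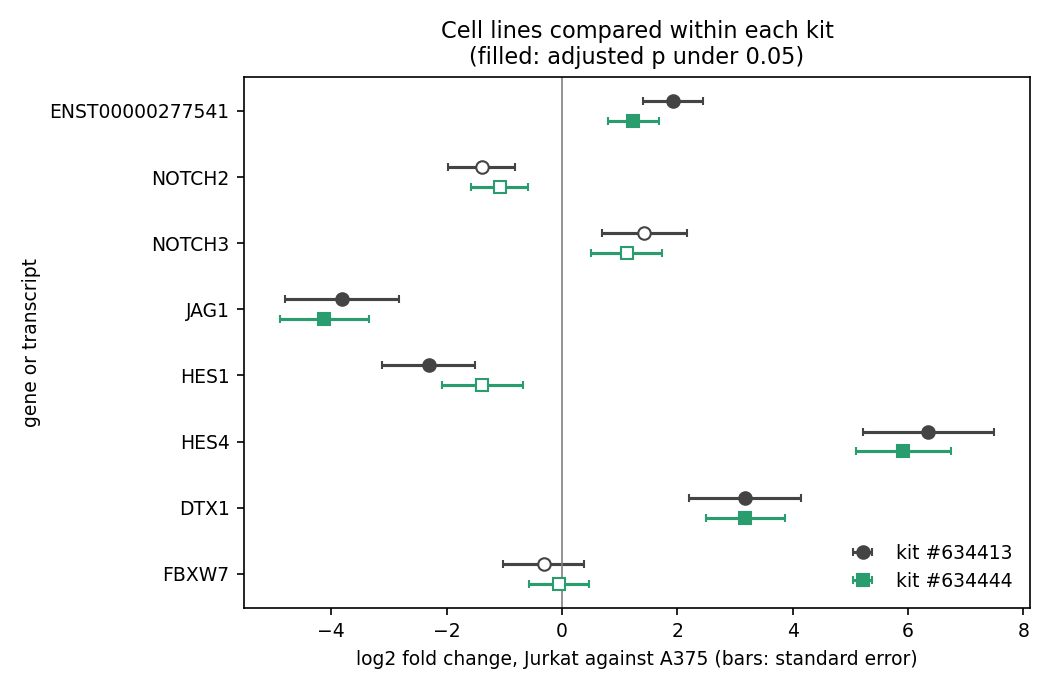
Log2 fold changes between the cell lines (horizontal axis, Jurkat against A375, bars are the standard error) for the 7 tested Notch genes and ENST00000277541 on the vertical axis, with circles for kit #634413 and squares for kit #634444. Filled symbols have an adjusted p under 0.05; HES4, DTX1 and ENST00000277541 lie to the right and JAG1 to the left with both kits.

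On the per-length scale, the order of the genes differed between the lines. Mean TPM over wells of at least 25% of the median total was highest for FBXW7 in Jurkat with kit #634413 (35.8 ± 41.5, SD, n = 18), followed by NOTCH3 (33.1 ± 54.2), HES4 (26.8 ± 39.4), DTX1 (20.4 ± 36.7), HES1 (10.8 ± 22.3), the retained intron target of NOTCH1 (8.69 ± 22.5), NOTCH2 (4.78 ± 5.59), PTCRA (0.608 ± 2.13) and JAG1 (0.514 ± 2.18). With kit #634444 FBXW7 (29 ± 29.3, SD, n = 18), HES4 (28.7 ± 27.7) and DTX1 (26.2 ± 24.6) led, ahead of NOTCH3 (10.5 ± 19.6), NOTCH2 (9.96 ± 18.2), HES1 (7.40 ± 10.8), the retained intron target of NOTCH1 (1.21 ± 5.14), PTCRA (0.459 ± 1.95) and JAG1 (0.341 ± 0.899). In Jurkat the SD, a spread between wells, was close to the mean or above it for each of these genes. Differences between neighbours in the order were not tested. ENST00000277541 was kept out of this order because it is not paired with a gene here. Its mean TPM was 11.01 ± 7.63 and 7.575 ± 5.249 (SD) in Jurkat with kits #634413 and #634444. In A375 wells of at least 25% of the median total it was 2.70 ± 2.164 and 3.988 ± 2.484 (SD). In A375 HES1 led with kit #634413 (52.3 ± 59.8, SD, n = 17) and FBXW7 with kit #634444 (43.3 ± 41.3, SD, n = 16), ahead of HES1 there (30.4 ± 25.2). NOTCH2 (18.1 ± 21.9 and 13.9 ± 7.25) and JAG1 (16.5 ± 22 and 17.1 ± 23.6) came next to NOTCH3 (14.3 ± 21.6 and 12.6 ± 10.7). DTX1 (3.42 ± 6.41 and 3.79 ± 5.37) and HES4 (0.230 ± 0.947 and 0.321 ± 0.917) were the lowest of the detected targets there. Part of the NOTCH3 and FBXW7 counts lay on short targets, such as those of 564 and 671 bases, on which a count adds more TPM than on a long target.

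Within a line, wells differed in which targets they held. Of the 36 Jurkat wells, 10 had counts of HES1, HES4 and DTX1 together, 16 of exactly 2, 9 of exactly 1 and 1 of none. HES4 and DTX1 were found together in 22 Jurkat wells, HES4 and HES1 in 13, and HES1 without HES4 in 3. Of the 42 A375 wells, 28 had HES1 without HES4, 3 had both and 11 had neither. JAG1 and HES1 were found together in 27 A375 wells and in 2 Jurkat wells. JAG1 itself was detected in 15 and 16 A375 wells, and in 1 and 4 Jurkat wells, of kits #634413 and #634444. These counts of wells are a description, since a count of 0 at this depth does not show that the RNA was absent from a cell.

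Between the kits, no Notch gene was called within either line. Kit #634444 against kit #634413, log2 fold changes in Jurkat ran from -0.18 for NOTCH3 to 0.48 for NOTCH2 over the 6 genes tested, and in A375 from -0.58 for HES1 to 0.38 for DTX1 over the 6 tested there. With edgeR each had an adjusted p of 0.9999, and 0 of them had an unadjusted p under 0.05. Over all features 0.0376% of 10625 were called between the kits in Jurkat and 0.0744% of 12096 in A375. The difference of the cell line contrast between the kits was called for 1.53% of 11610 features and for none of the 7 Notch genes, where it ran from -0.38 for JAG1 to 0.91 for HES1 with the same adjusted p of 0.9999. The standard errors of these differences were 0.74 to 1.35, so the wells do not show that the kits act alike on these genes.

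The wider pathway was read from 62 further genes listed by role, of which 48 and 49 passed the filter. With kit #634413, 3 were called higher and 5 lower in Jurkat, with kit #634444 6 higher and 5 lower, and 3 and 5 were called so with both, beside the 9.39% and 9.82% of all features. The median log2 fold change of the list was 0.28 and 0.09.

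Among the genes that cut the receptor, PSEN2, a catalytic subunit of gamma-secretase, was lower in Jurkat with both kits. ADAM10, the protease that makes the first cut, was called higher with kit #634444 alone (1.07, adjusted p = 0.03181, against 0.90 and 0.2261 with kit #634413). For ADAM10 the difference of this contrast between the kits was not called (0.16, adjusted p = 0.9999). PSEN2 had 0 counts in all 36 Jurkat wells, and 236 counts in 14 and 251.5 counts in 15 A375 wells. Set against a floor of 3 counts over the Jurkat group, it was at least 78.6-fold and 81.5-fold lower. Of the glycosyltransferases that tune ligand choice, MFNG was higher in Jurkat with both kits (6.91, adjusted p = 1.055e-07, and 4.77, adjusted p = 5.107e-07), with 585 and 444 counts in 17 Jurkat wells of each kit and 4 and 13 in A375.

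In the nuclear complex, RBPJ did not pass the test (0.43, adjusted p = 0.6429, and -0.08, adjusted p = 0.9157), while the coactivators MAML2 and MAML3 were lower in Jurkat with both kits. MAML2 had 0 counts in all Jurkat wells and 785.8 and 617.3 counts in A375, at least 262-fold and 200-fold lower against the same floor. MAML3 had 3 counts in 2 Jurkat wells of kit #634413 and 85 counts in 4 of kit #634444, against 637 and 538.5 in A375 (with kit #634444 -2.76, adjusted p = 0.003464). Of the corepressor genes, HDAC1, a histone deacetylase, was higher in Jurkat (2.29, adjusted p = 0.0001764, and 1.93, adjusted p = 4.478e-05). Of the trafficking and ubiquitin genes, DTX3, another Deltex protein, had 0 counts in Jurkat and 272 and 262 in A375, at least 90.6-fold and 84.9-fold lower, and the ubiquitin ligase NEDD4 was lower (-1.59, adjusted p = 0.01704, and -1.60, adjusted p = 0.002804).

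Of the 9 further targets, SHQ1, an assembly factor of small nucleolar RNPs, was called higher in Jurkat with both kits (1.82, adjusted p = 0.0216, and 2.33, adjusted p = 4.309e-06). The first call was lost without the 4 shallow wells of kit #634413 (1.53, adjusted p = 0.06145). MYC, an oncogene that Notch drives in T cell leukemia, was called higher with kit #634444 alone (3.24, adjusted p = 4.651e-05, against 1.19 and 0.3456). For MYC the difference of this contrast between the kits was 2.06 ± 1.08 (SE, adjusted p = 0.8118) and was not called. The HEY genes, which encode repressors related to the HES proteins, were below the filter and are named after their values had been seen. HEY1 had 0 counts in Jurkat and 141 and 49 in A375, HEYL had 78 and 48 in Jurkat and 0 in A375, and HEY2 had 41 and 111 in Jurkat and 0 and 7 in A375. Of the 4 further ligands JAG2, DLL1, DLL3 and DLL4, and of NOTCH4, none passed the filter. Of the 6 partners of FBXW7 in receptor degradation, SKP1 alone was called, with kit #634444 (1.07, adjusted p = 0.033, against 0.82 and 0.1819 with kit #634413). For SKP1 the difference of this contrast between the kits was not called (0.22, adjusted p = 0.9999).

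**Figure D5:**
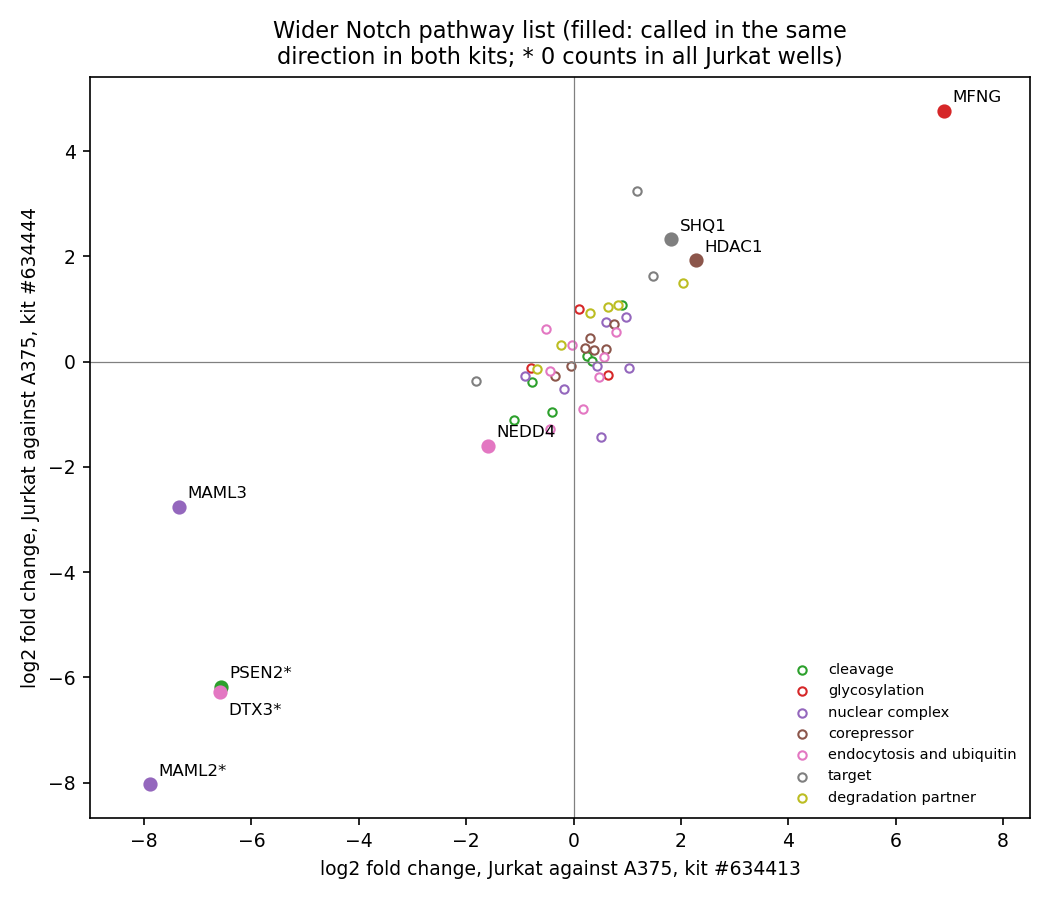
Each point is a gene of the wider list tested with both kits, placed by its log2 fold change, Jurkat against A375, with kit #634413 (horizontal) and kit #634444 (vertical), and coloured by role. Filled points were called in the same direction with both kits: MFNG, HDAC1 and SHQ1 higher, and PSEN2, MAML2, MAML3, DTX3 and NEDD4 lower, where a star marks genes with 0 counts in all Jurkat wells, whose fitted fold depends on the prior count.

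The study pooled 8 samples per library, and which wells shared a pool is not given in the sources used here. As a stand-in, wells were put into 3 blocks of neighbouring index numbers per group, with 6 Jurkat or 7 A375 wells each. When counts were summed over these blocks in place of wells, HES4 alone of the 7 Notch genes was called with kit #634413 (6.38, adjusted p = 0.01845), and JAG1 (-4.45, adjusted p = 0.06409), DTX1 (3.10, adjusted p = 0.05127) and HES1 (-2.17, adjusted p = 0.09608) were not. With kit #634444, HES4, DTX1, JAG1, HES1 and NOTCH2 were called. Over all features these sums called 3004 of 19220 with kit #634413 and 4942 of 21020 with kit #634444. Each block lies within a single group, so these sums set the groups against the spread between blocks, and no comparison of the lines within a block can be made. Wells are single cells of a culture, and p-values measure the spread between these wells only.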

How the data were processed

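The authors trimmed paired-end reads with cutadapt and quantified Ensembl v91 transcripts and ERCC spikes with Kallisto (kallisto 0.43.1 in the submitters' processing notes) in stranded mode, and deposited estimated counts per transcript, which are not normalized, for 78 wells. TPM values, derived by Kallisto from those counts and effective lengths, were deposited beside them. Transcripts were matched by identifier to GENCODE v44 (195850 of 200206 matched; unmatched ones held 4.59% of counts and stayed single features) and summed per gene.

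Wells were grouped by labelled cell line and kit. The 10 genes and the pathway and marker lists were chosen with earlier results of these data known. Counts, rounded, were compared with edgeR 4.0.16 (glmQLFit, glmQLFTest, TMM; R 4.3.3, limma 3.58.1) for features with 5 or more counts in 25% or more of the wells of a fit, with Benjamini-Hochberg adjustment over all features and a threshold of 0.05. The procedure was tested on simulated data. Standard errors came from the F statistic. Detection means 1 count or more. In a well of median total the smallest amount shown, 3 counts, is 3.24, 3.91, 3.95 and 4.56 CPM in the 4 groups.

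The genes named are the 10 members, their transcripts with 10% or more of the counts of the gene in a line, and, of 62 pathway genes, up to 2 per role and direction with the largest mean change among those called alike with both kits. ADAM10, RBPJ, MYC, SKP1 and the HEY genes fall outside this rule and were named after their values had been seen. Alternatives were DESeq2 1.42.0, scaling by library size alone, a filter of only 1 count in 3 wells, wells of 25% or more of the median total, limma on log2(TPM + 1), leaving out the rDNA repeat unit, sums over index blocks, and NOTCH2 with its paralogs. Leaving out single wells and adding ENST00000277541 to NOTCH1 were chosen after seeing the data. No 2 wells held identical values (0 of 3003 pairs). Promoters came from RefSeq (GRCh38.p14). Tables and plots used Python 3.11.15, pandas 2.3.3, scipy 1.17.1 and matplotlib 3.10.9.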

Additional observations from a re-analysis of the deposited data

Results flagged for a closer look

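MAML3, a Mastermind-like coactivator of the Notch complex from the wider list, was the pathway gene whose difference between the cell lines itself differed between the kits. The difference of the log2 fold changes (kit #634444 minus kit #634413, Jurkat against A375) was 4.43 ± 1.06 (SE, edgeR's quasi-likelihood test, adjusted p = 0.01129). MAML3 had 3 counts in 2 of 18 Jurkat wells with kit #634413 and 85 counts in 4 of 18 with kit #634444, of which a single well held 56, so the fitted fold of the first kit depends on the prior count. In A375 it had 637 and 538.5 counts, and the kits did not differ there by the test (-0.59, adjusted p = 0.9999). With limma on log2(TPM + 1) this difference was called for 0 features (428 had an unadjusted p under 0.05), and with sums over index blocks MAML3 was not called (4.69, adjusted p = 0.6299).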

How the results depend on the processing

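Of the cell line contrasts, HES4 with both kits, JAG1 and DTX1 with kit #634444 and ENST00000277541 with kit #634413 stayed called in the same direction. This held under all 7 other settings and without any single well. The cause of each change below was not tested. The number of Notch genes called changed by over 1.5 times only with sums over index blocks, which have 3 sums per group: 1 in place of 4 (kit #634413) and 5 in place of 3 (kit #634444). Over all features those sums called 3004 of 19220 and 4942 of 21020, against 2579 of 11171 and 3912 of 12258 in the main fits. FBXW7, never called, turned sign with kit #634413 under DESeq2 (0.20), library size alone (0.11), limma on TPM (0.15) and index blocks (0.31). With kit #634444 it turned under DESeq2 (0.10), limma (0.53) and index blocks (0.00), and ran from -0.23 to 0.18 when single wells were left out, and NOTCH3 turned under limma (-0.35). Over all features, no filter on low counts gave 7603 and 9147 calls between the lines in place of 2579 and 3912. It gave 1450 and 1939 between the kits in Jurkat and A375, in place of 4 and 9, and 3138 for the difference between contrasts, in place of 178. DESeq2 gave 40 between the kits in Jurkat and 9 for the difference. Limma gave 81 in Jurkat and 5 in A375 between the kits, and 0 for the difference, where 428 features had an unadjusted p under 0.05. Index blocks gave 1 for each of these 3 comparisons, and wells of at least 25% of the median total gave 1 between the kits in A375. The median log2 fold change over all features between the lines moved from 0.13 and 0.19 to between -0.28 and 0.37 and between -0.26 and 0.42 over the settings. Library size alone moved it to 0.21 and 0.07. The share of calls that were higher in Jurkat was 46.5% with kit #634413 and 53.5% with kit #634444, and moved to 58.5% (DESeq2), 30.5% (no filter) and 36.6% (deeper wells), and to 33.9% (no filter), 40.5% (deeper wells) and 40.1% (index blocks). PTCRA and NRARP were at or near 0 counts at this depth, and NOTCH1 was read through 1 of its transcripts. No paired analysis was possible because the replicate numbers only name wells in accession order.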
